A study of Homo sapiens with 6 samples.

Results

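Named long noncoding RNAs were followed in THP-1 macrophages after knockdown of RP11-184M15.1, itself a long noncoding RNA. A gene was taken by its symbol if its deposited counts over the 6 libraries summed to at least 100. LINC numbers (long intergenic noncoding RNAs), symbols ending in -AS and 1 digit (RNAs named as antisense to a gene), NEAT1 and MALAT1 were taken. Of the 17042 genes measured, 645 had such a symbol, and 210 reached 100 counts: 139 antisense RNAs, 70 LINC RNAs and NEAT1. MALAT1 is not analysed here. The genes were chosen by their sum of counts, so their abundance is a description, and the difference between the groups was not part of the choice.

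THP-1 is a human monocytic leukaemia line, and all libraries came from this single line. The 3 knockdown libraries came from cells differentiated for 24 hours with PMA, a phorbol ester, at 100 ng/mL. They were then transfected by a lipid reagent with small interfering RNA (siRNA) against RP11-184M15.1 and kept for 24 hours with 20 ng/mL of IL-4 (interleukin-4). The 3 control libraries had the same PMA and IL-4, and the labels do not say whether the control cells received a siRNA. Nothing says that the replicates of a group were separate cultures, so the spread behind each p-value is that between libraries and may be technical. The level of RP11-184M15.1 is not analysed here, so the extent of the knockdown was not checked.

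Long noncoding RNAs are transcribed, spliced and polyadenylated much as messenger RNAs are, but most encode no protein and many stay in the nucleus. An antisense RNA is read from the strand opposite a gene, and many such RNAs start at or near the start of their sense partner. Some act on the neighbouring gene, some hold snoRNAs (small guides of rRNA modification) in their introns, and NEAT1 is the scaffold of nuclear bodies called paraspeckles. Macrophages change the expression of many of them on activation.

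The knockdown libraries held 12029360 to 14181343 counts and the control libraries 10450043 to 12113848. Mitochondrially encoded genes took 2.39% to 2.48% of counts in the knockdown libraries and 2.31% to 3.01% in the control libraries. Of the 13 mitochondrially encoded mRNAs, read as a sign of RNA quality, 12 lay below 0 in the knockdown, with a median log2 fold change of -0.16, and 1, MT-ND3, was called lower (-0.19, adjusted p = 0.0240). MT-ND3 missed the threshold in 4 of the 6 fits that left out a library. Of all tested genes 1.61% were called lower. An unadjusted p under 0.05 (edgeR) was found for 5 of the 13 (38.5%), beside 2025 of the 13405 tested genes. The 12 macrophage markers summed to 4936 to 5140 CPM (counts in proportion to the library total) in the knockdown libraries and 4944 to 5218 CPM in the control libraries. Of them CD14 (log2 fold change 0.34, adjusted p = 0.00300) and ITGAX (0.23, adjusted p = 0.0146) were higher and LYZ (-0.40, adjusted p = 0.000928) was lower in the knockdown. ITGAX missed the threshold in 3 of the 6 fits that left out a library. Of the 12 macrophage markers 4 lay above 0 and 8 below, with a median log2 fold change of -0.03. Thus 2 were called higher and 1 lower, where 1.22% of all tested genes were called higher and 1.61% lower. Unadjusted, 5 of the 12 (41.7%) had a p under 0.05 (edgeR), beside the same 2025 of 13405. FCGR1A, at -0.50, had the largest change of the 12 but was not called (edgeR, adjusted p = 0.0754). No T cell marker was in the table. The B cell markers summed to 5.99 to 7.61 CPM in the knockdown libraries and 5.86 to 6.62 CPM in the control libraries, and the epithelial marker detected to 0.210 to 0.246 CPM and 0.0838 to 0.385 CPM. The fibroblast markers summed to 6.65 to 8.42 CPM in the knockdown libraries and 4.36 to 6.83 CPM in the control libraries. The part of these markers and of the mitochondrial mRNAs in the results that follow was not tested.

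The long noncoding RNAs differed in where they lie. Of the 210, 195 had a position in the GENCODE 29 annotation (GRCh38) and 15 had none. The annotation types 89 as antisense, 64 as lincRNA and 32 as processed transcript. It types 1, NCBP2-AS2, as protein-coding. The exons of 124 overlapped exons of a gene on the opposite strand, and those of 33 overlapped exons of a gene on their own strand. No source used here says whether strand was used in counting, so for these RNAs reads in shared stretches could have been split between genes. The start of a coding gene on the opposite strand lay within 1000 bases of the start of 75 RNAs, apart from it in 30 and overlapping in 45. Annotated snoRNAs lay within 4: LRRC75A-AS1, EPB41L4A-AS1, LINC00888 and LINC02001.

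Sequence around the transcription start differed by class. RefSeq start windows (250 bases before to 50 after the start, GRCh38.p14) were found for 150 of the 210 RNAs, 180 windows in all. The CpG dinucleotide, dense in the promoters of most housekeeping genes, had a median of 23 per window in 121 windows of antisense RNAs and 7 in 59 windows of LINC RNAs, against 14 in all 35116 windows. By position, the median was 28.5 CpG in the 26 windows of RNAs that diverge from a coding gene and 28 in the 49 whose start overlaps that gene's start. It was 6 CpG in the 29 windows of RNAs with no gene opposite. The windows of 3 RNAs whose knockdown libraries all lay below the control libraries show this range. LRRC75A-AS1, the snoRNA host now named SNHG29 (chr17:16438737-16439036, plus strand), held 19 CpG. LINC01184, now SLC12A2-DT because it diverges from the ion cotransporter gene SLC12A2 (chr5:128083126-128083425, minus strand), held 29 CpG at 70.3% GC. LINC01094 (chr4:78645744-78646043, plus strand) held 2 CpG at 43.7% GC. Each is printed 5′ to 3′ along the RNA, with CpG in capitals:
LRRC75A-AS1: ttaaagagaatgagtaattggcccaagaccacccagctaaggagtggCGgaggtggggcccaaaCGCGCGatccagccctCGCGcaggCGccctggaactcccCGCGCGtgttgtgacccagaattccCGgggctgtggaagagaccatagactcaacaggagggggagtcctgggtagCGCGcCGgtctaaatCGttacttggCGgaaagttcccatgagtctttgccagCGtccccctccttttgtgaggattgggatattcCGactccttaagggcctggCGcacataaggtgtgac
LINC01184: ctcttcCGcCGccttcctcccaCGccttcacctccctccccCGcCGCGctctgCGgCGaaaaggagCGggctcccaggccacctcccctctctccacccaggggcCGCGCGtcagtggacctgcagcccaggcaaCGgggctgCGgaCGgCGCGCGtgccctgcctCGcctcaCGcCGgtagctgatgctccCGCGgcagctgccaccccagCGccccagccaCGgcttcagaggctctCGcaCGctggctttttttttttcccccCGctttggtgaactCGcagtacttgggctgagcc
LINC01094: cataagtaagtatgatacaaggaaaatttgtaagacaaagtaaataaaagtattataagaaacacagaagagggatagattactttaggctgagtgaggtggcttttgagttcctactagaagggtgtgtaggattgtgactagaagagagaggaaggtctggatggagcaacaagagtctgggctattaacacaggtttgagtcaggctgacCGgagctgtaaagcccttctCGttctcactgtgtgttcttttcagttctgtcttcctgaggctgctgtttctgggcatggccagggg
The run of capitals is spread over the whole LINC01184 window, whereas LINC01094 has both of its CpG in the stretch before the start. IL-4 acts through the transcription factor STAT6, which binds TTC and GAA around a gap. The letters TTC, 4 bases of any kind and GAA, which read the same on both strands, were found in 10 of the 180 windows (5.56%) and in 6.44% of all windows. The same letters around 3 bases, counted separately, were found in 13 (7.22%) and in 7.66% of all windows. None of the printed windows holds either. LINC01619, the RNA called lower below, has 2 windows that are not printed, with 1 and 0 CpG. The first holds the letters around 3 bases, 249 bases before the start, and neither holds those around 4. Both windows lie in the untranslated region of another gene, BTG1. All 6 libraries had IL-4, so its effect on these RNAs was not measured.

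Together the 210 RNAs took little of the RNA counted. Their summed level was 1810, 1782 and 1810 CPM in the knockdown libraries and 1821, 1786 and 1788 CPM in the control libraries, and they held 0.180% of all counts. The ranges of the groups overlap. The 10 RNAs with the most counts held 37.7% of the counts of all 210. The median RNA had 271 counts over the 6 libraries, against 1549 for all tested genes, and the lowest count of any of them in a library was 6. There were 115 with 100 to under 300 counts, 68 with 300 to under 1000, and 27 with 1000 or more.

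OIP5-AS1 (ENSG00000247556.6, chr15:41283990-41309737, plus strand), known as Cyrano and described as a binder of HuR and of miR-7, had the most counts, 10256. Its level was 148, 138 and 150 CPM in the knockdown libraries and 138, 140 and 145 CPM in the control libraries, a log2 fold change of 0.04 ± 0.05 (SE, n = 3 each, adjusted p = 0.774). The groups overlapped. LRRC75A-AS1 (ENSG00000175061.17, chr17:16438822-16478678, plus strand), which carries SNORD49A, SNORD49B and SNORD65, had 102, 102 and 97.0 CPM in the knockdown libraries and 114, 112 and 110 CPM in the control libraries. Every knockdown library lay below every control library, but its log2 fold change of -0.16 ± 0.05 did not pass the test (adjusted p = 0.0930). FGD5-AS1 (ENSG00000225733.5, chr3:14920347-14948424, minus strand) had 102, 104 and 101 CPM in the knockdown libraries and 109, 108 and 107 CPM in the control libraries. These groups did not overlap either, with a log2 fold change of -0.08 ± 0.05 (adjusted p = 0.452).

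The next most counted were CCDC144NL-AS1 with 5133 counts (log2 fold change 0.08), MSC-AS1 with 3808 (-0.02), LINC00963 with 3298 (-0.09) and OTUD6B-AS1 with 3240 (0.03). Their adjusted p-values lay between 0.573 and 0.909. LINC00649, which starts within ATP5PO, the gene of a mitochondrial ATP synthase subunit, had 42.8, 45.9 and 44.8 CPM in the knockdown libraries and 39.5, 38.9 and 40.1 CPM in the control libraries (0.17 ± 0.06, adjusted p = 0.172). BAIAP2-AS1, named after an actin regulator, had 40.4, 39.3 and 39.7 CPM in the knockdown libraries and 32.8, 33.6 and 37.6 CPM in the control libraries (0.20 ± 0.07, adjusted p = 0.157). For both, the knockdown libraries all lay above the control libraries without a call. MMP24-AS1, with 2104 counts, completed the 10 (0.04, adjusted p = 0.851).

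**Figure D1:**
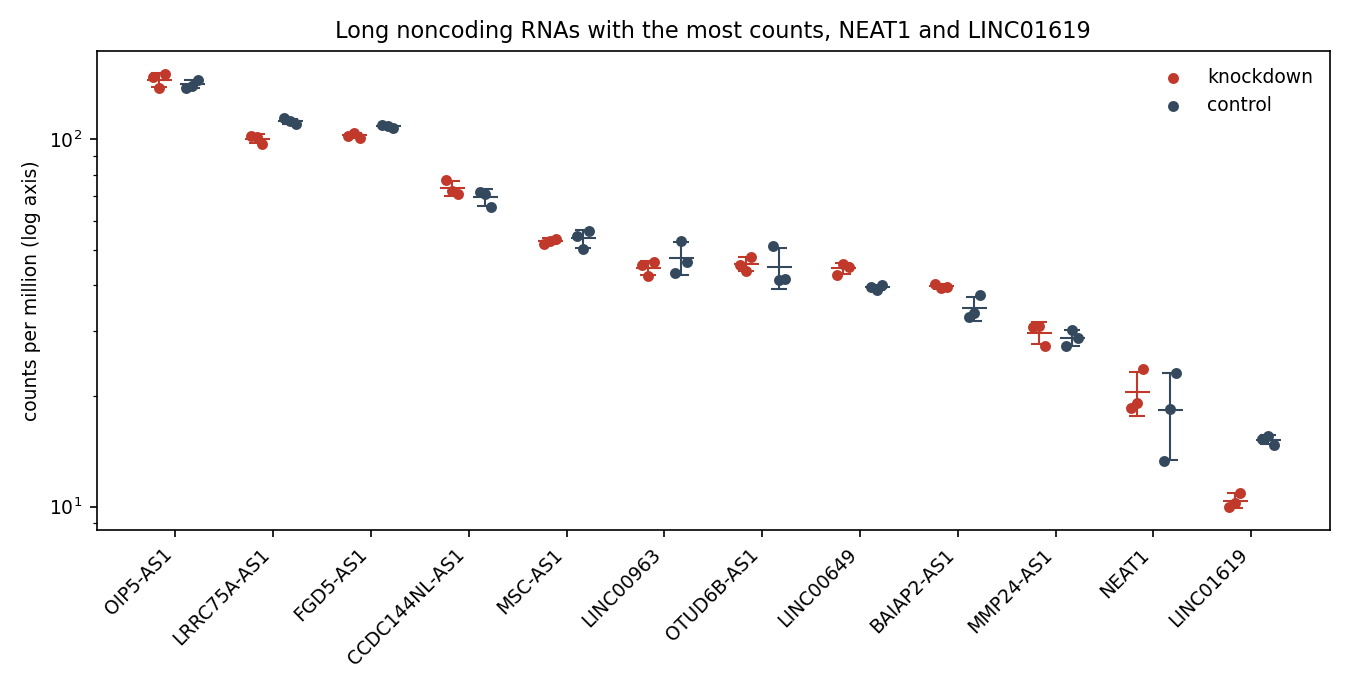
CPM (log axis) of the 10 long noncoding RNAs with the most counts, NEAT1 and LINC01619, in the 3 knockdown and 3 control libraries; points are libraries, and bars are the mean ± SD. The knockdown and control points of OIP5-AS1 overlap near 140 CPM, those of NEAT1 spread widely, and those of LINC01619 stand apart at 9.96 to 10.9 and 14.7 to 15.6 CPM.

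Levels can be compared between RNAs only per length, here CPM per kilobase of the longest annotated transcript. On that scale LRRC75A-AS1 was first, at 60.3 in the knockdown and 67.4 in the control group. LINC01388, a short transcript of 416 bases, followed at 37.0 in the knockdown and 46.8 in the control group, and FGD5-AS1 at 27.0 and 28.6. CCDC144NL-AS1 stood at 19.7 in the knockdown and 18.6 in the control group, and NCBP2-AS2 at 18.3 and 17.9. OIP5-AS1, first by counts, was sixth at 16.4 in the knockdown and 16.0 in the control group. The median over 195 RNAs was 1.70 CPM per kilobase (range 0.117 to 63.9), and LINC01619 stood at rank 21. NEAT1, whose longest transcript has 22743 bases, stood at rank 149 with 0.852. Counts are per gene, so where reads came from a shorter transcript this measure is too low.

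The comparison addresses how these RNAs respond, in macrophages held with IL-4, to the targeting of RP11-184M15.1. LINC01619 was lower and no RNA of the 210 was higher at an adjusted p under 0.05 (edgeR quasi-likelihood test, adjusted over 13405 genes). This is 1 of 210 (0.476%), where 379 of all tested genes (2.83%) passed, 1.22% higher and 1.61% lower. Without adjustment 21 of the 210 had a p under 0.05, 9 higher (4.29%) and 12 lower (5.71%), against 6.89% and 8.21% of all tested genes. The groups did not overlap in 33 (15.7%), 17 higher and 16 lower, against 20% of all tested genes (9.61% higher and 10.4% lower). By each of these counts the 210 RNAs thus held fewer calls than the table as a whole. The counts were not matched for abundance, and none was tested as a list.

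The lower abundance of these RNAs goes with wider errors. The median SE of a log2 fold change was 0.20 over the 210, against 0.09 over all tested genes. It was 0.27 for RNAs with 100 to under 300 counts, 0.15 with 300 to under 1000 and 0.08 with 1000 or more. Against tested genes of the same abundance, 1 of the 183 RNAs with 100 to under 1000 counts passed (0.546%), where 45 of 4488 such genes (1%) passed. Of the 26 RNAs with 1000 to under 10000 counts none passed, where 217 of 6531 such genes (3.32%) did. In that band 7 of 26 (26.9%) had an unadjusted p under 0.05, against 17.4% of all genes in it. With 100 to under 1000 counts the shares were 7.65% of the RNAs and 9.54% of such genes. The groups did not overlap in 14.2% of the RNAs with 100 to under 1000 counts, against 14.9% of such genes. With 1000 to under 10000 counts they did not overlap in 26.9%, against 21.8%.

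The median log2 fold change of the 210 was 0.03 (quartiles -0.16 and 0.18), against -0.00 for all tested genes (quartiles -0.09 and 0.09), and 53.3% lay above 0, against 49.4%. With 100 to under 1000 counts, 52.5% of the 183 RNAs and 52.5% of the 4488 tested genes lay above 0. All 210 lay between -0.75 and 0.56. The antisense RNAs had a median of 0.04 and the LINC RNAs one of -0.06. Of the 139 antisense RNAs 8 were higher (5.76%) and 4 lower (2.88%) at an unadjusted p under 0.05 (edgeR). Of the 70 LINC RNAs 1 was higher (1.43%) and 8 lower (11.4%). Among all tested genes the shares were 6.89% higher and 8.21% lower. Among tested genes with 100 to under 1000 counts, the band of 183 of the 210, they were 4.97% higher and 4.57% lower. The classes were not tested against each other. A difference of at least 1.5-fold was fitted for 4 RNAs (1.9%), against 2.73% of all tested genes: LINC01857, LINC01138, FBXL19-AS1 and the Y-linked LINC00278, all lower and none past the test.

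**Figure D2:**
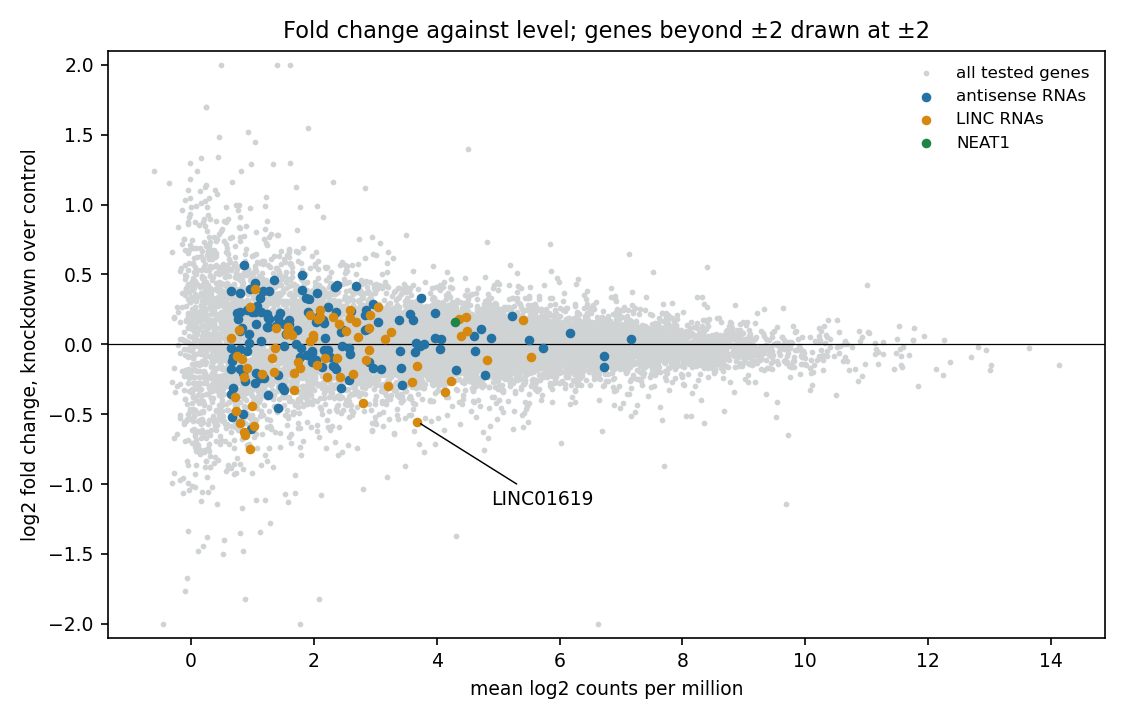
Log2 fold change (knockdown over control) against mean log2 CPM for all 13405 tested genes, with 139 antisense RNAs, 70 LINC RNAs and NEAT1 coloured. The coloured points spread more at low levels, within -0.75 and 0.56, and LINC01619, at -0.55, lies below the other coloured points near its level.

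LINC01619 (ENSG00000257242.7, chr12:91984976-92142914, minus strand, 13 exons, typed as a processed transcript) was 31.8% lower in the knockdown. It had 9.96, 10.2 and 10.9 CPM in the knockdown libraries and 15.3, 15.6 and 14.7 CPM in the control libraries, from 123, 146 and 133 counts and 162, 186 and 153 counts. The groups did not overlap, and the means were 10.4 ± 0.493 CPM in the knockdown and 15.2 ± 0.436 CPM in the control group (SD, n = 3 each). The log2 fold change was -0.55 ± 0.10 (SE, adjusted p = 0.00554). It passed in each of the 6 fits that left out a library, with a log2 fold change between -0.59 and -0.53 and an adjusted p between 0.00826 and 0.0435. In bulk RNA, fewer cells that express a gene and less of its RNA per cell cannot be told apart.

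LINC01619 shares sequence with a coding gene on its own strand. Of its exonic bases 503 coincide with the 3' untranslated region of BTG1 (ENSG00000133639.4, chr12:92140278-92145897, minus strand), a gene that restrains cell proliferation, and none lies in BTG1 coding sequence. Estimated counts can therefore be divided between the pair, and the level of LINC01619 is uncertain to that extent. BTG1 had 248, 259 and 243 CPM in the knockdown libraries and 275, 271 and 273 CPM in the control libraries. Its groups did not overlap, but its log2 fold change of -0.13 ± 0.04 did not pass (adjusted p = 0.151). The share of LINC01619 in the counts of both genes was 3.87%, 3.80% and 4.30% in the knockdown libraries and 5.27%, 5.43% and 5.13% in the control libraries. The mean share was 3.99% ± 0.271 in the knockdown and 5.28% ± 0.152 in the control group (SD, n = 3 each, two-sided exact permutation p = 0.1, the smallest that 3 against 3 can give). LINC01619 itself separated the groups and BTG1 changed less, so the share adds no independent support for the call. Nor does it show how reads in the shared bases were divided. The counts of both genes summed, a value chosen after seeing the data, had a log2 fold change of -0.15 (adjusted p = 0.0888). LINC01619 is so small a share of that sum that the value is mainly that of BTG1 and does not bear on the call of LINC01619.

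Among RNAs that separated the groups without passing the test, KIF25-AS1, antisense to a kinesin gene, had the smallest p of those higher. It had 7.29, 7.58 and 6.32 CPM in the knockdown libraries and 4.91, 5.28 and 5.68 CPM in the control libraries, a log2 fold change of 0.42 ± 0.14 (adjusted p = 0.151). HMGN3-AS1, antisense to a nucleosome-binding protein gene, had 5.83, 5.68 and 5.67 CPM in the knockdown libraries and 4.72, 3.77 and 4.33 CPM in the control libraries (0.43 ± 0.16, adjusted p = 0.194). In HMGN3-AS1 the knockdown libraries lay close together, well above the highest control library. SLC9A3-AS1, named after a sodium/hydrogen exchanger, had 4.94, 5.96 and 5.67 CPM in the knockdown libraries and 3.59, 4.02 and 4.91 CPM in the control libraries (0.41 ± 0.17, adjusted p = 0.266). Here the lowest knockdown library and the highest control library nearly met.

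STXBP5-AS1, antisense to the gene of tomosyn, an inhibitor of vesicle fusion, had 8.02, 8.49 and 8.38 CPM in the knockdown libraries and 7.09, 6.45 and 6.93 CPM in the control libraries (0.28 ± 0.12, adjusted p = 0.284). CTBP1-AS2, named after a transcriptional corepressor, had 17.7, 17.05 and 15.0 CPM in the knockdown libraries and 13.5, 14.9 and 14.1 CPM in the control libraries (0.23 ± 0.10, adjusted p = 0.286). LINC00909, now ZNF407-AS1, had 8.99, 8.77 and 8.54 CPM in the knockdown libraries and 8.50, 7.12 and 6.26 CPM in the control libraries (0.27 ± 0.13, adjusted p = 0.370). In both CTBP1-AS2 and LINC00909 the highest control library lay just under the lowest knockdown library.

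Of the RNAs on the lower side, LINC01184 starts 594 bases from SLC12A2, the gene of a sodium-potassium-chloride cotransporter, on the opposite strand. It had 5.67, 5.96 and 5.99 CPM in the knockdown libraries and 7.37, 8.04 and 8.18 CPM in the control libraries (-0.42 ± 0.13, adjusted p = 0.1098). SVIL-AS1, antisense to the gene of the actin-binding protein supervillin, had 23.2, 25.4 and 27.5 CPM in the knockdown libraries and 28.4, 29.1 and 31.2 CPM in the control libraries (-0.22 ± 0.08, adjusted p = 0.189). LINC01184 left a clear gap between the groups, and SVIL-AS1 a narrow one. LINC01539 had 10.9, 11.4 and 10.3 CPM in the knockdown libraries and 13.9, 13.7 and 11.9 CPM in the control libraries (-0.27 ± 0.11, adjusted p = 0.223). LINC01094, whose start window holds few CpG, had 8.18, 7.65 and 8.70 CPM in the knockdown libraries and 10.3, 8.88 and 11.0 CPM in the control libraries (-0.30 ± 0.12, adjusted p = 0.260). Both separated the groups by less than the spread within the control group.

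The fitted differences of at least 1.5-fold came from RNAs with few counts. LINC01857, with 118 counts in all, had 1.38, 1.33 and 1.23 CPM in the knockdown libraries and 2.17, 2.01 and 1.92 CPM in the control libraries (-0.63 ± 0.27, adjusted p = 0.277). LINC01138 had 1.30, 1.26 and 1.40 CPM in the knockdown libraries and 2.93, 1.84 and 1.44 CPM in the control libraries (-0.65 ± 0.31, adjusted p = 0.341). FBXL19-AS1 had 1.86, 1.26 and 1.23 CPM in the knockdown libraries and 2.36, 2.43 and 1.83 CPM in the control libraries (-0.61 ± 0.28, adjusted p = 0.324). The groups of LINC01857 and LINC01138 did not overlap and those of FBXL19-AS1 did. LINC00278 had 127 counts in all (-0.75 ± 0.30, adjusted p = 0.238). Single libraries weighed on these values: without knockdown replicate 2 LINC00278 had -0.48, and without control replicate 1 LINC01138 had -0.33, both under 1.5-fold. FBXL19-AS1 ran between -0.82 and -0.51 in these fits.

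**Figure D3:**
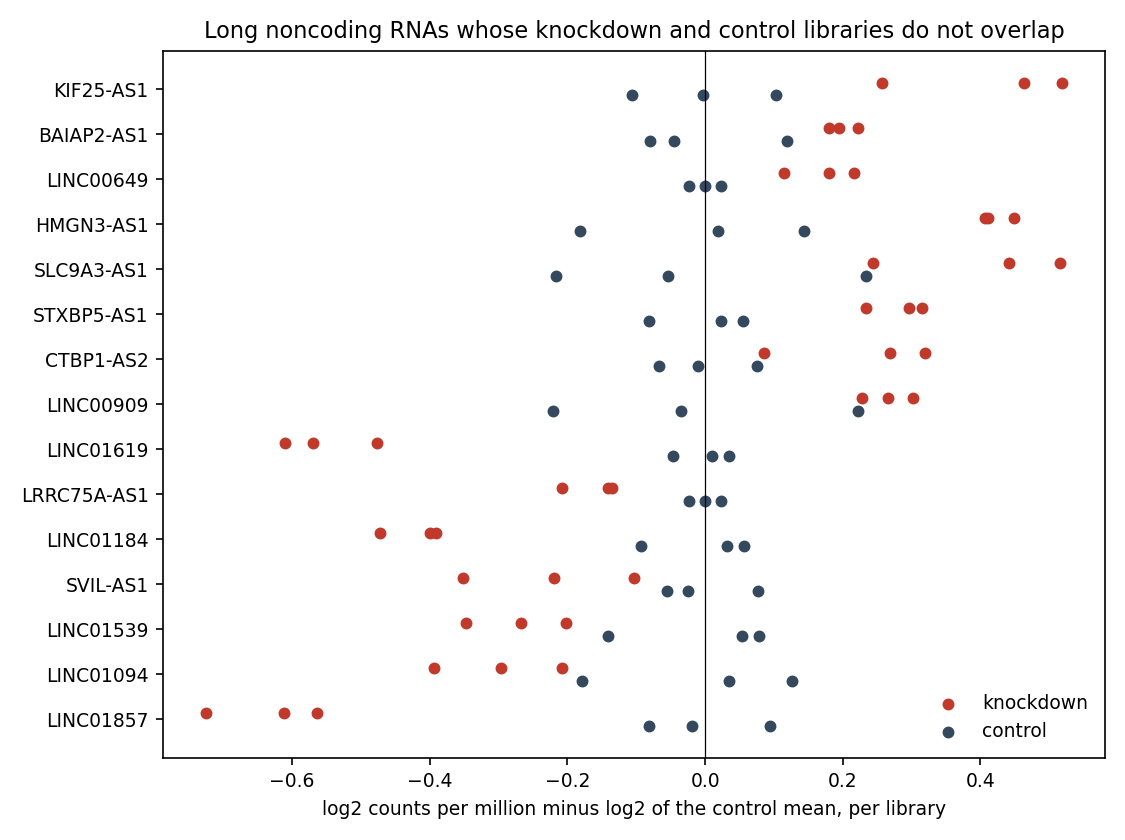
Log2 CPM of each library minus the log2 of the control mean, for the 8 higher and 7 of the 8 lower long noncoding RNAs with the smallest p among those whose knockdown and control libraries do not overlap (the Y-linked LINC00278 is not drawn). Knockdown points lie right of the control points in the upper 8 rows and left of them in the lower 7, and LINC01619 (-0.55 ± 0.10) is the one that passed the test.

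LINC01388 depended on a single library. It had 15.9, 16.1 and 14.3 CPM in the knockdown libraries and 16.1, 21.6 and 20.8 CPM in the control libraries (-0.34 ± 0.11, adjusted p = 0.129). Control replicate 1 lay among the knockdown libraries, and without it the log2 fold change was -0.46 and passed (adjusted p = 0.0103). LINC01388 was named after its values were seen.

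NEAT1 (ENSG00000245532.8, chr11:65422774-65445540, plus strand), the paraspeckle scaffold, had 18.5, 19.1 and 23.7 CPM in the knockdown libraries and 13.3, 18.4 and 23.1 CPM in the control libraries. The control libraries spanned the knockdown libraries almost fully, with a coefficient of variation (CV, the SD as a share of the mean) of 26.7% in the control group. The log2 fold change was 0.16 ± 0.15 (adjusted p = 0.685), and without control replicate 1 it was -0.02. No difference in NEAT1 was detected, and its transcripts of different length were not told apart.

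The other RNAs with a described function did not pass either. LINC01578, known as CHASERR and described as a repressor of the neighbouring chromatin remodeller gene CHD2, had 24.9, 23.5 and 22.5 CPM in the knockdown libraries and 24.3, 20.1 and 17.5 CPM in the control libraries (adjusted p = 0.404). PSMB8-AS1, antisense to an immunoproteasome subunit gene, had 17.7, 18.3 and 19.5 CPM in the knockdown libraries and 24.2, 20.6 and 18.1 CPM in the control libraries (-0.18 ± 0.10, adjusted p = 0.447). The groups overlapped in both, and in each the control libraries were the more spread. GABPB1-AS1, antisense to a subunit of an ETS-family transcription factor, had 6.48, 8.98 and 6.57 CPM in the knockdown libraries and 6.80, 7.04 and 5.29 CPM in the control libraries (0.21 ± 0.16, adjusted p = 0.617). EPB41L4A-AS1, which carries SNORA13, had 6.56, 7.79 and 7.80 CPM in the knockdown libraries and 7.56, 6.62 and 6.35 CPM in the control libraries (0.11 ± 0.14, adjusted p = 0.768). LINC00116, later found to encode the mitochondrial microprotein mitoregulin, had 8.67, 9.40 and 8.38 CPM in the knockdown libraries and 9.54, 7.79 and 8.56 CPM in the control libraries (0.04 ± 0.12, adjusted p = 0.930). All 3 overlapped between the groups.

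Sense partners were measured for most antisense RNAs. Of the 139, 128 had the gene they are named after in the table and 119 of these genes were tested, of which 0 were higher and 1 was lower at an adjusted p under 0.05 (edgeR), beside 2.83% of all tested genes called either way. Unadjusted, 21 of the 119 (17.6%) had a p under 0.05, beside 2025 of the 13405 tested genes (6.89% higher and 8.21% lower). DESeq2 called 1 higher, ITGB2, the gene of an integrin subunit (0.12, adjusted p = 0.0453). The partner called was SLC16A1, the gene of the lactate transporter MCT1. It had 44.3, 43.1 and 44.6 CPM in the knockdown libraries and 54.1, 57.1 and 55.4 CPM in the control libraries, a log2 fold change of -0.34 ± 0.06 (adjusted p = 0.00416). The groups of SLC16A1 did not overlap, and it passed without each library in turn (adjusted p 0.00176 to 0.0423).

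SLC16A1-AS1 (chr1:112956415-113047055, plus strand) starts inside SLC16A1, 598 bases past its start, and shares 175 exonic bases with it on the opposite strand. It had 2.43, 2.39 and 2.05 CPM in the knockdown libraries and 2.17, 1.76 and 2.41 CPM in the control libraries, and the groups overlapped. Its log2 fold change was 0.12 ± 0.25 (adjusted p = 0.871), so a fall as large as that of SLC16A1 lies within 2 SE of the estimate. The difference between the pair was not tested.

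Over the 119 pairs, the signs of the 2 log2 fold changes matched in 66 (55.5%). Pearson's r across these pairs was 0.29 and Spearman's rho 0.31, as a description: the pairs share libraries and genes are not independent replicates. Exon overlap was compared only in the 108 pairs with annotated lengths for both genes. In the 80 of these whose exons overlap r was 0.27, with 41 of like sign. In the 28 with no exon overlap it was 0.27, with 14 of like sign. The median log2 fold change was 0.05 for the antisense RNAs (median SE 0.21) and -0.00 for their partners (median SE 0.08). SVIL, with few counts, had 1.13, 2.03 and 2.38 CPM in the knockdown libraries and 2.83, 2.51 and 3.18 CPM in the control libraries (-0.61 ± 0.28, adjusted p = 0.313), on the same side as SVIL-AS1. The partners of BAIAP2-AS1 (0.03), HMGN3-AS1 (-0.04), CTBP1-AS2 (0.04) and STXBP5-AS1 (-0.06) had log2 fold changes near 0.

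**Figure D4:**
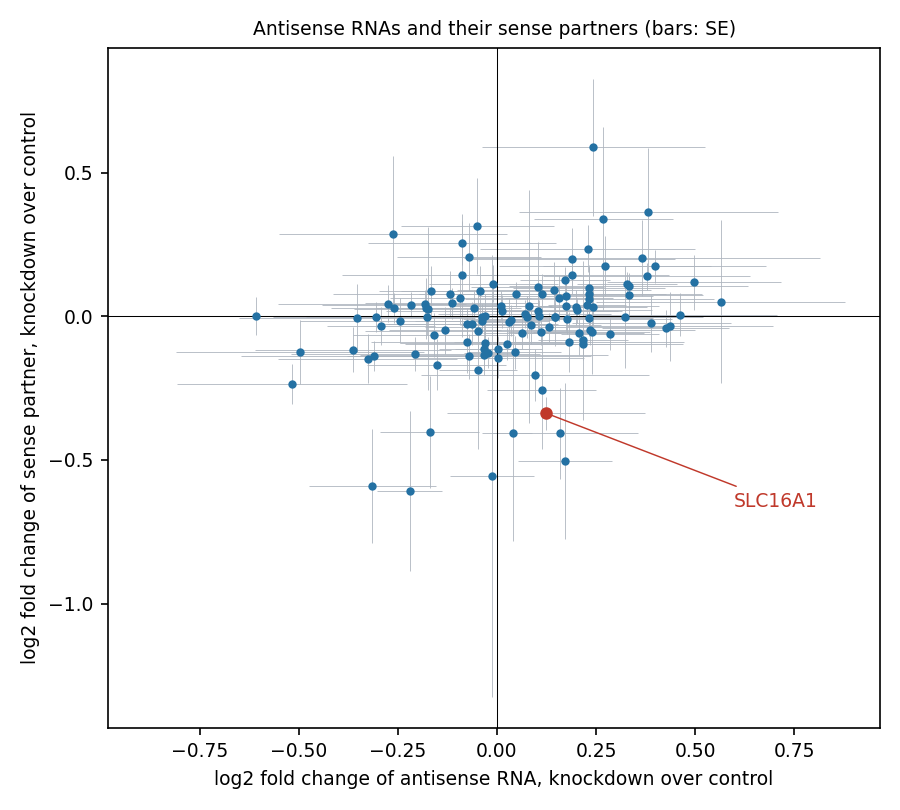
Log2 fold change (knockdown over control) of 119 sense partners against that of their antisense RNAs; bars are SE, and the partner past the test, SLC16A1 (-0.34 ± 0.06), is in red. The bars are wider along the antisense axis (median SE 0.21) than along the partner axis (0.08).

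In most pairs the sense gene was the more abundant per length. The level of the partner over that of the antisense RNA, both in CPM per kilobase over all libraries, had a median ratio of 6.30 in 108 pairs with annotated lengths, from 0.0199 to 363. At the high end TPT1, the gene of translationally controlled tumour protein, had 213 CPM per kilobase and TPT1-AS1 0.587. In 23 pairs the partner was the lower, as for CCDC144NL with 0.382 beside 19.2 CPM per kilobase for CCDC144NL-AS1. SVIL had 0.286 CPM per kilobase beside 13.6 for SVIL-AS1, and OIP5 1.52 beside 16.2 for OIP5-AS1.

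Lists of genes of the bodies and complexes that hold or degrade nuclear long noncoding RNAs were described by their counts, beside 1.22% of all tested genes called higher and 1.61% called lower, and 2025 of 13405 with an unadjusted p under 0.05. Of 33 paraspeckle proteins none passed, 23 lay below 0, and their median log2 fold change was -0.06, against -0.00 for all tested genes. An unadjusted p under 0.05 was found for 11 of the 33 (33.3%). SFPQ, a core paraspeckle protein, had the smallest p, with 287, 294 and 290 CPM in the knockdown libraries and 324, 319 and 324 CPM in the control libraries (-0.15 ± 0.04, adjusted p = 0.0655). Its groups did not overlap. Of 25 nuclear speckle and SR splicing proteins 1 was lower and none higher, 19 lay below 0 (median -0.05) and 6 (24%) had an unadjusted p under 0.05. The one called was the splicing factor SRSF1, with 202, 190 and 206 CPM in the knockdown libraries and 234, 227 and 228 CPM in the control libraries (-0.21 ± 0.05, adjusted p = 0.0233). Of 20 tested genes of the nuclear exosome, which degrades nuclear RNA, 1 was lower and none higher, 12 lay below 0 (median -0.02) and 2 (10%) had an unadjusted p under 0.05. The one called was the cofactor MPHOSPH6, with 14.5, 12.9 and 12.4 CPM in the knockdown libraries and 23.1, 17.4 and 16.8 CPM in the control libraries (-0.52 ± 0.12, adjusted p = 0.0289). Neither call held throughout: SRSF1 and MPHOSPH6 each missed the threshold in 4 of the 6 fits that left out a library, with adjusted p up to 0.158 and 0.156.

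Among the listed long noncoding RNAs under other kinds of name, none was called. Of 32 snoRNA host RNAs listed 23 were in the table and 18 were tested, with 0 higher and 0 lower and a median log2 fold change of 0.06. Of these, 1 had an unadjusted p under 0.05 (edgeR). The smallest p was that of SNHG16 (adjusted p = 0.196). Of 30 other named long noncoding RNAs 19 were tested, none passed (edgeR), none had an unadjusted p under 0.05, and the median was -0.01. DANCR, which keeps progenitor cells undifferentiated, had the smallest p (-0.27 ± 0.15, adjusted p = 0.415).

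At the threshold that chose the RNAs, LINC00674, THAP7-AS1 and TMEM147-AS1 had 100 counts, while LINC01465 had 98 and ADIRF-AS1 and LINC01569 had 99. Among RNAs with at least 100 counts in a group, the spread between replicates of that group was widest in 4 others. LINC01002 had 1.62, 3.72 and 3.12 CPM in the knockdown libraries and 1.04, 3.27 and 3.75 CPM in the control libraries, with a CV of 38.3% in the knockdown group. LINC01410 had 3.73, 2.39 and 2.05 CPM in the knockdown libraries (CV 32.5%) and 2.55, 2.93 and 4.81 CPM in the control libraries (CV 35.3%). STARD7-AS1, named after a mitochondrial lipid transfer protein, had 2.03, 3.86 and 2.38 CPM in the knockdown libraries (CV 35.3%) and 1.98, 2.93 and 2.60 CPM in the control libraries. CCDC183-AS1 had 2.43, 3.65 and 1.97 CPM in the knockdown libraries (CV 32.3%) and 1.80, 3.27 and 1.83 CPM in the control libraries. In all 4 the groups overlapped, and the gap between replicates was larger than that between the group means.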

How the data were processed

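Polyadenylated RNA was sequenced in 6 libraries, which the titles put in groups of 3. The build hg38, Salmon 0.11.2 and DESeq2 are named, without roles, in the submitters' processing notes. The authors deposited expected counts, estimates of the kind Salmon gives, for 17042 gene symbols, each value (100%) a whole number and no row sum under 10. The sources used here give neither the rounding nor the use of strand. Estimated counts split reads between genes that share sequence.

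Counts entered edgeR 4.0.16 unchanged. Its quasi-likelihood test (two-sided, group alone in the model, TMM factors, filterByExpr) kept 13405 genes, with Benjamini-Hochberg adjustment over all and a threshold of 0.05. An SE is the log2 fold change divided by the square root of F. CPM uses the TMM factors, and 3 counts came to 0.210 to 0.289 CPM. Intervals of counting error are not given. Replicates were checked for duplicates (none) and the tests were tested on simulated data. Alternatives used DESeq2 1.42.0 and limma 3.58.1 (R 4.3.3), and other steps scipy 1.17.1, pandas 2.3.3 and matplotlib 3.10.9 under Python 3.11.15.

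Positions came from GENCODE 29 and sequences from RefSeq, matched by symbol or current symbol; the 2 windows of LINC01619 and that of OIP5-AS1 lie in untranslated regions and are not printed. The genes, lists and tests were chosen with earlier results of these data known. Named were NEAT1, each RNA called, the 10 with the most counts, the 8 higher and 8 lower non-overlapping RNAs of smallest p, those with a described function, called sense partners, 3 on either side of 100 counts, the 5 widest CVs at 100 or more counts in a group, and each list's calls or smallest p.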

Additional observations from a re-analysis of the deposited data

How the results depend on the processing

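Under DESeq2, limma-voom, upper-quartile and RLE normalization, either other filter (none, or 1 CPM in 3 libraries) and the replicate block, LINC01619 was the RNA of the 210 that passed, with an adjusted p between 0.00546 and 0.0172. It was also the one at 50 or more and at 300 or more counts. DESeq2 gave no adjusted p for 167 of the 210. Over all tested genes, 163 were higher (56 at an adjusted p under 0.01, 55 to 214 when a library was left out) and 216 lower (94 at 0.01, 84 to 328 when a library was left out). Leaving out a library gave 1 to 2 of the 210 lower, 1 to 2 of the LINC RNAs lower and 1 to 3 sense partners lower, LINC01388 being added without control replicate 1 (adjusted p = 0.0103), and EMC3 among the partners without control replicate 3 (adjusted p = 0.0249). DESeq2 called 1 sense partner higher, ITGB2. BTG1 with LINC01619 added had -0.15 (adjusted p = 0.0888, chosen after seeing the data). Leaving out a library turned the sign of NEAT1 (-0.018 to 0.36), MSC-AS1 (-0.067 to 0.012), OTUD6B-AS1 (-0.023 to 0.14), LINC00116 (-0.034 to 0.11), LINC01002 (-0.30 to 0.37), STARD7-AS1 (-0.19 to 0.32) and CCDC183-AS1 (-0.077 to 0.58), none of them past the test; the cause was not tested. With the replicate number as a block 200 genes were higher and 288 lower, and LINC01619 had -0.55 (adjusted p = 0.00817). Same-numbered libraries correlated at 0.05, 0.10 and 0.08, and differently numbered ones at -0.085 to 0.001. Each library thus correlated best with its own number, though weakly. The labels give no pairing, so whether same-numbered libraries were paired is not known. With 100 to under 300 counts, a median SE of 0.27 limits what could be detected.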

Other observations

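Another 435 genes carried a matching symbol with under 100 counts. Of these 80 were tested, none passed (edgeR), 5 (6.25%) had an unadjusted p under 0.05, and the median log2 fold change was -0.02. Of 581 tested genes that GENCODE 29 types as antisense, lincRNA or processed transcript and that lay outside the 210, 2 were higher and 2 lower (0.688%), with a median SE of 0.31 and a median of 119 counts. Of 11969 tested protein-coding genes 159 were higher and 207 lower (3.06%), with a median SE of 0.08 and a median of 1876 counts.

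An antisense RNA and its partner were chosen after their values were seen. ITGB2-AS1, antisense to the integrin gene ITGB2, had 14.3, 12.8 and 16.8 CPM in the knockdown libraries and 10.2, 11.1 and 13.6 CPM in the control libraries (log2 fold change 0.33 ± 0.13, adjusted p = 0.214), beside 0.11 ± 0.04 for ITGB2 (adjusted p = 0.178). The exons of ITGB2-AS1 overlap those of genes on the opposite strand, ITGB2 among them. The largest overlap with a single gene is 303 bases. Neither ITGB2-AS1 nor ITGB2 was called by edgeR.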
